A study of Canis lupus familiaris with 15 samples.

Results

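The genes described here encode the contractile actin cytoskeleton (actins, myosin II, tropomyosins, transgelins, filamins and their partners), the smooth muscle and striated muscle relatives of these proteins, the factors that drive their transcription, members of the YAP pathway and the coat proteins of caveolae. They were chosen by name, as 59 symbols that stand for 58 genes, since PTRF is an older symbol of CAVIN1. A member was counted as listed where the gene column of a deposited table held its symbol. In all, 36 of the 58 genes were listed in at least 1 of 3 tables, among 7699 symbols in those tables. The table of extravasated against parental D17 cells held 30 of them among 4412 genes, that of extravasated against parental HMPOS cells held 8 among 1189, and that of parental HMPOS against parental POS cells held 24 among 5746.

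D17, HMPOS and POS are osteosarcoma cell lines of the dog, and HMPOS is a sub-line of POS that was described as highly metastatic. The 5 groups, of 3 libraries each, were D17 parental and D17 extravasated cells, HMPOS parental and HMPOS extravasated cells, and POS cells, which were parental alone. Extravasated cells had been injected into the blood of zebrafish embryos of the Tg(fli1a:EGFP) line, had left the vessels as clusters, and were isolated and expanded in culture as sub-lines before RNA was taken. Parental cells were grown in vitro and never passed through a zebrafish, so passage through the host, leaving the vessels and regrowth from few cells cannot be told apart in these comparisons. Each table gives 1 FPKM value per group (fragments scaled by transcript length and by library size) that stands for all libraries of the group, so no value below has an SD, and depth and spread between libraries are unknown. The tables list only the genes that the authors' test marked as significant, and a gene that is not listed has no value here. The direction of each difference follows the group names in the tables, where the parental name was read from POS, which has parental libraries alone. The log2 column that the tables themselves hold takes the second group over the first, so its signs are the reverse of those printed here. With the group names as read here, 797 genes lay on the higher side for extravasated HMPOS and 392 on the lower side. For D17 these counts were 2390 and 2022. In the article, downregulated genes outnumber upregulated ones in both lines, at counts close to these with the sides exchanged. The directions given below for extravasated cells thus appear opposite to those in the article. They would turn if the group names in the tables had been exchanged. The parental HMPOS values of the 7 members held by both HMPOS tables differed by at most 0.130% between those tables.

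Actin filaments and non-muscle myosin II pull together as stress fibres. Many of their genes are bound by serum response factor (SRF), whose partners are the myocardin family: MYOCD in muscle, and the actin-regulated MRTF proteins in most other cells. YAP1 and WWTR1 (TAZ) are held back by the LATS kinases of the Hippo pathway and, when free, act in the nucleus with TEAD proteins, on genes such as ANKRD1 and AMOTL2. Both pathways are known to respond to tension and cell spreading. Caveolae are small membrane pits built by caveolins and cavins.

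The label of the group was checked against what was listed. None of the 4 muscle actins (ACTA1, ACTA2, ACTC1 and ACTG2) was listed in any table, nor were MYH11, CNN1, DES and LMOD1, which with ACTA2 mark contractile smooth muscle. The smooth muscle proteins that were listed are ones that non-muscle cells also make (TAGLN, CALD1, SMTN, MYLK, TPM1 and TPM2), together with MYOCD and CSRP1. The listed set is thus better described as actin-associated genes and YAP pathway genes than as a smooth muscle set. That holds for the listed set alone, since a gene that is not listed may still be expressed. Further members listed nowhere were ACTG1, ACTN1, CNN2, MYL6, MYL9, MYL12A, TPM4, TNNT1, TNNT2, PDLIM7, SRF, YAP1, TEAD4 and CAV2. Of markers of other cells, 0 of 8 for skeletal muscle and 0 of 4 for leukocytes were listed in any table. Of 7 endothelial markers, ERG alone was listed for D17 and KDR alone for HMPOS against POS. Of 7 smooth muscle and pericyte markers outside the group, NOTCH3 alone was listed for D17, at 1.45 FPKM in extravasated against 0.994 FPKM in parental cells, and PDGFRB alone for extravasated HMPOS, at 11.8 against 8.70 FPKM. Between HMPOS and POS 4 of these 7 were listed, MCAM at 24.3 FPKM in HMPOS against 4.64 FPKM in POS, CSPG4 at 7.64 against 19.4 FPKM, NOTCH3 at 4.05 against 5.00 FPKM and PDGFRB at 8.69 against 10.5 FPKM. No listed marker of these lists was at 0, and the part of such cells in the results was not tested. Of the osteoblast markers, COL1A1, COL1A2 and SPP1 were listed for D17, ALPL, BGLAP, COL1A1 and IBSP for extravasated HMPOS, and BGLAP, COL1A1, SP7 and SPP1 for HMPOS against POS, with no value of 0, while RUNX2 was listed in no table. In RNA of whole cultures, fewer cells that make a transcript and less of it per cell cannot be told apart.

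The comparison within D17 asked which genes differ between cells that had extravasated and parental cells that were never infused. Several actin-associated genes that were low in parental D17 cells were many times higher in extravasated D17 cells, led by TAGLN, ANKRD1 and FHL1, while FLNA, MYOCD and XIRP1 were lower. Of the 30 listed members, 19 were higher and 11 lower in extravasated cells, that is 63.3% higher. Of all listed genes 54.2% were higher and 45.8% lower. At a fold above 2, 7 members were higher and 3 lower. Of all genes in that table, 18.3% were higher and 8.50% lower at this fold, so 7 and 3 of 30 are not far from the background. Centring ratios on the table's median gave 5 higher and 4 lower, since LIMA1 and NEXN no longer passed the fold and AJUBA did. The median log2 ratio of the members (extravasated over parental) was 0.41, against 0.39 for all listed genes. The description that follows is therefore of single genes.

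**Figure D1:**
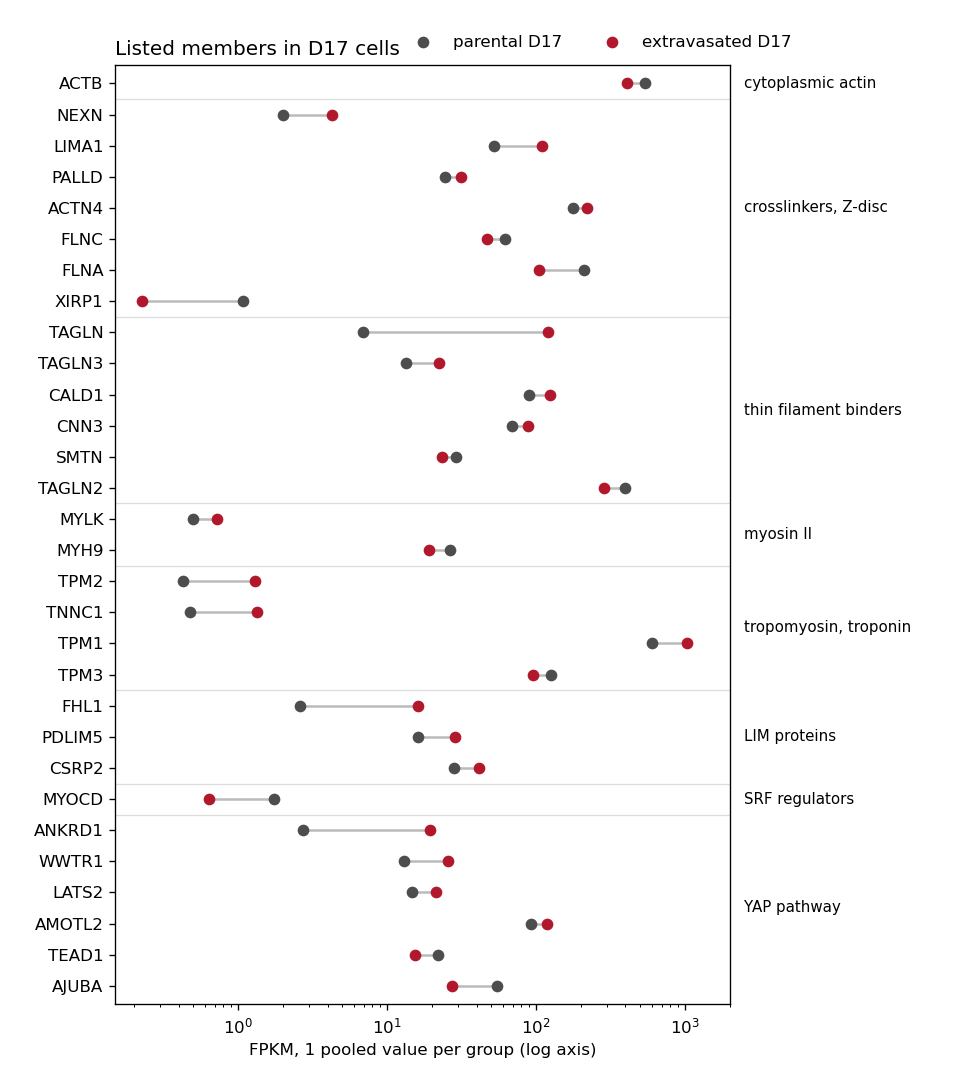
FPKM of the 30 members listed for D17 cells, 1 row per gene grouped by role, with parental cells in grey and extravasated cells in red on a log axis. Each point is 1 value for the whole group, without error. The widest gap is that of TAGLN, from 6.89 to 120.4 FPKM, and most members above 20 FPKM lie close to their parental value, ACTN4, CNN3, AMOTL2 and PALLD so close that their direction turns when ratios are centred on the table's median.

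TAGLN encodes transgelin, an actin-binding protein of the calponin family that is abundant in smooth muscle and in fibroblasts with stress fibres. The table gives it as ENSCAFG00000013162 on chromosome 5 from 16390682 to 16396187. Positions are those of CanFam3.1, the dog assembly that the submitters' processing notes name, and whether starts count from 0 is not stated. TAGLN stood at 120.4 FPKM in extravasated against 6.89 FPKM in parental D17 cells, a difference on the log2 scale of 4.13 that ranks at 22 of the 2390 genes that were higher. Its paralogs were within a fold of 2. TAGLN2, the transgelin of non-muscle cells, was at 285.4 FPKM in extravasated against 399.1 FPKM in parental cells, and TAGLN3, the neuronal form, at 22.3 and 13.4 FPKM. The ratio of TAGLN to TAGLN2, both scaled by length, was 0.422 in extravasated and 0.0173 in parental cells. TAGLN was listed in neither of the other tables.

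Of the other thin filament binders, CALD1 (caldesmon, which holds back myosin on actin) was at 123.8 FPKM in extravasated against 89.7 FPKM in parental D17 cells. CNN3, the calponin of non-muscle cells, was at 88.4 and 68.8 FPKM. SMTN (smoothelin) was on the lower side, at 23.4 and 29.2 FPKM. These 3 differences were all within a fold of 1.5.

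Tropomyosins lie along the actin filament and set which myosins and binders reach it. TPM1 was the most abundant listed member in both lines. In D17 it stood at 1039 FPKM in extravasated against 600.0 FPKM in parental cells, which is a log2 ratio of 0.79. Its level was above that of 98.7% of the genes listed for D17. TPM2 was far lower, at 1.31 and 0.430 FPKM, with a log2 ratio of 1.60. TPM3 went the other way, at 96.1 and 125.8 FPKM. The ratio of TPM1 to TPM3 was therefore 10.8 in extravasated and 4.77 in parental D17 cells. TNNC1, the calcium-binding troponin of slow and cardiac muscle, was at 1.35 and 0.473 FPKM, and no troponin T was listed. TPM2 and TNNC1 are near the lower end of the listed levels, and with 1 FPKM added to both groups neither passed a fold of 2.

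ACTB, both filamins and MYH9 were lower in extravasated D17 cells, and FLNA alone of these passed a fold of 2. ACTB, a cytoplasmic actin, was at 409.8 FPKM in extravasated against 542.2 FPKM in parental D17 cells. The ratio of ACTB to TPM1 was 0.395 in extravasated and 0.904 in parental cells. How reads shared by near-identical actin genes were divided is not given in the sources used here, so the ACTB value is uncertain to that extent. FLNA (filamin A, which joins crossing filaments into a mesh) was at 105.5 and 212.1 FPKM, a log2 ratio of -1.01 that is just past the threshold. FLNC, its muscle relative, was at 47.3 and 61.7 FPKM. MYH9, the heavy chain of non-muscle myosin IIA, was at 19.2 and 26.7 FPKM. MYLK, the kinase that switches myosin II on, was near the lower end of the listed levels at 0.725 and 0.497 FPKM.

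Other crosslinkers were higher in extravasated D17 cells. LIMA1 (EPLIN, which stabilises bundles and ties them to junctions) was at 110.1 and 52.4 FPKM, a log2 ratio of 1.07 that became 0.69 on centring, within a fold of 2. NEXN (nexilin, an actin-binding protein of muscle discs and adhesions) was at 4.27 and 2.02 FPKM, a log2 ratio of 1.08 that fell within a fold of 2 on centring (0.70) and with 1 FPKM added to both groups. PALLD (palladin) was at 31.6 and 24.6 FPKM and ACTN4 (an alpha-actinin of non-muscle cells) at 221.5 and 177.5 FPKM, and both turn lower when ratios are centred on the table's median of 0.39.

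XIRP1 encodes Xin, an actin-binding repeat protein of striated muscle. It was at 0.226 FPKM in extravasated against 1.07 FPKM in parental D17 cells, which is a log2 ratio of -2.25, which ranks at 14 of the 2022 genes that were lower. XIRP1 lies on chromosome 23 from 8852099 to 8859504 and was listed for D17 alone. MYOCD, the muscle partner of SRF, was at 0.643 and 1.75 FPKM, a log2 ratio of -1.44. Both genes were thus low in parental cells and lower after extravasation, while TAGLN, a known target of myocardin proteins, was on the opposite side. With 1 FPKM added to both groups, neither XIRP1 nor MYOCD passed a fold of 2.

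All 3 listed LIM domain proteins, which dock on filaments and adhesions, were higher in extravasated D17 cells. FHL1 was at 16.2 FPKM in extravasated against 2.62 FPKM in parental cells, which is a log2 ratio of 2.63. PDLIM5 was at 28.7 and 16.2 FPKM and CSRP2 at 41.5 and 28.1 FPKM.

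Of the YAP pathway members, ANKRD1 stood out. This nuclear and sarcomeric ankyrin protein, a common readout of YAP activity, was at 19.6 FPKM in extravasated against 2.73 FPKM in parental D17 cells, which is a log2 ratio of 2.84 that ranks at 93 of 2390. WWTR1 (TAZ, the paralog of YAP1) was at 25.6 and 13.1 FPKM, a log2 ratio of 0.97 that is just inside the threshold. TEAD1, the DNA-binding partner, was at 15.4 and 22.0 FPKM, so that the ratio of WWTR1 to TEAD1 was 1.66 in extravasated and 0.594 in parental cells. LATS2, the kinase that restrains YAP and is also its target, was at 21.4 and 14.7 FPKM. AMOTL2 (a motin that binds YAP) was at 118.7 and 92.2 FPKM, and it turns lower when centred on the median. AJUBA, a LIM protein that inhibits LATS kinases, was lower at 27.4 and 54.6 FPKM, a log2 ratio of -0.998, just inside the threshold that FLNA passed.

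Among the D17 members, larger differences were seen at lower levels. The 10 members past a fold of 2 had a median of 10.3 FPKM in the higher group, and the 20 within it had 48.1 FPKM. All listed D17 genes showed the same order, with medians of 9.87 and 22.3 FPKM, so this is not particular to the members.

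**Figure D2:**
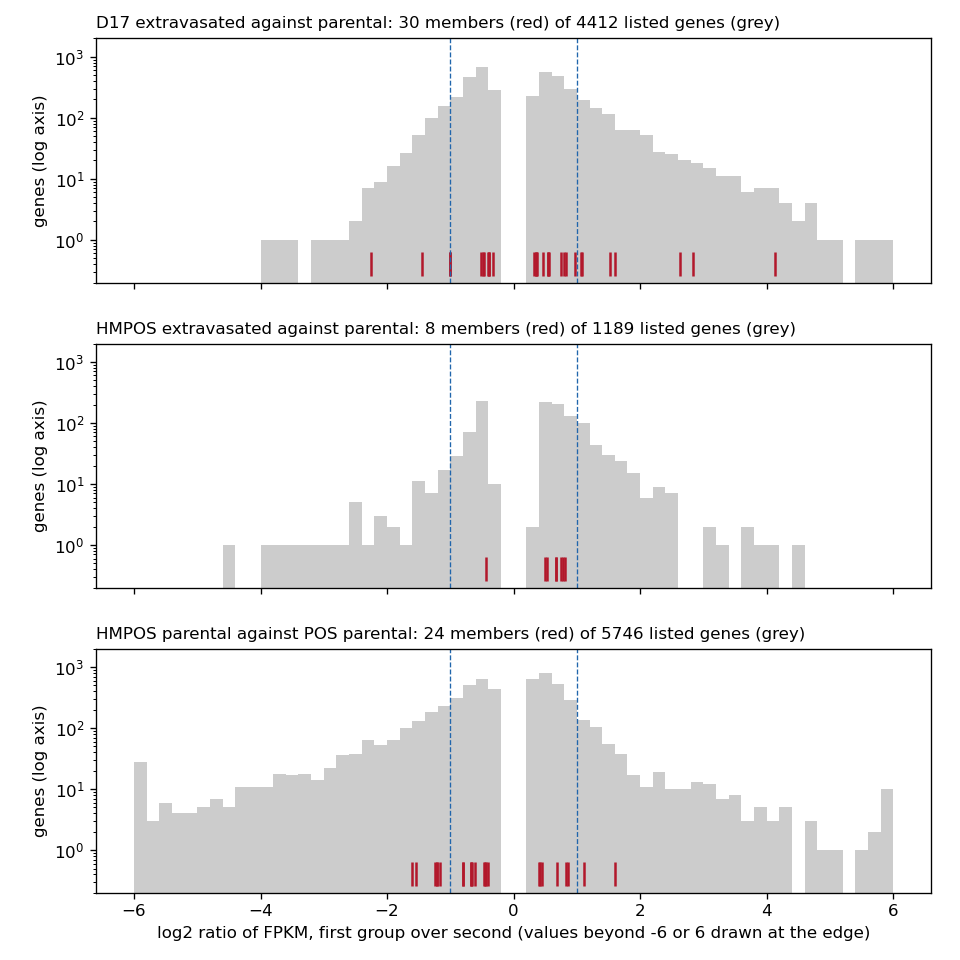
Histograms of the log2 ratio of FPKM for every listed gene of each table (grey, log count axis), with the members as red ticks and a fold of 2 as dashed lines. Genes with a value of 0 in a group are not drawn. The gap around 0 is where no gene was listed, and the members reach from -2.25 to 4.13 in D17 and from -1.60 to 1.60 in HMPOS against POS, where the other genes reach further on both sides. In extravasated HMPOS the members stay within a fold of 2.

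The same comparison in HMPOS gave fewer listed members, in a table of 1189 genes against 4412 for D17. The largest log2 ratio among the members was 0.81, against 4.13 in D17. Of the 8 listed members, 7 were higher in extravasated HMPOS cells and 1 was lower, beside 67.0% higher and 33.0% lower of all listed genes. None of the 8 passed a fold of 2 in either direction. Of all genes in this table, 20.5% were higher and 4.79% lower at that fold, so 0 of 8 is not far from the background. On centring 1 member, FHL1, was lower past the fold, at -1.02. The median log2 ratio of the members was 0.68, against 0.58 for all listed genes. These 8 genes were well expressed, from 10.6 to 576.7 FPKM in the higher group, with a median of 26.6 FPKM against 13.5 FPKM for all genes listed for HMPOS.

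The largest of these differences was in MYLK, the myosin light chain kinase, at 48.8 FPKM in extravasated against 27.9 FPKM in parental HMPOS cells, which is a log2 ratio of 0.81. CAV1 (caveolin 1, the main coat protein of caveolae) was at 18.0 and 10.5 FPKM, a log2 ratio of 0.78. FHL2, a LIM protein that binds SRF and actin structures, was at 44.1 and 26.2 FPKM, a log2 ratio of 0.75. TPM1 was at 576.7 and 360.7 FPKM and FLNC at 16.1 and 10.1 FPKM, each with a log2 ratio of 0.68. AMOTL2 was at 10.6 and 7.37 FPKM, and MYH10, the heavy chain of non-muscle myosin IIB, at 30.4 and 21.4 FPKM. These last 2 genes turn lower when ratios are centred on the table's median of 0.58.

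FHL1 was the 1 listed member that was lower in extravasated HMPOS cells, at 16.8 against 22.8 FPKM. FHL2 and FHL1 are close paralogs, and the ratio of FHL2 to FHL1 was 2.62 in extravasated and 1.15 in parental HMPOS cells.

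Members listed for both lines were MYLK, TPM1, FLNC, FHL1 and AMOTL2. These 5 are 16.7% of the members listed for D17 and 62.5% of those listed for HMPOS, against 13.9% and 51.6% over all symbols. The tables for D17 and HMPOS share no libraries. MYLK, TPM1 and AMOTL2 were higher in extravasated than in parental cells of either line, AMOTL2 on the scale as deposited alone. MYLK was below 1 FPKM in both D17 groups. Its log2 ratio in D17 fell from 0.54 to 0.20 with 1 FPKM added to both groups. FHL1 and FLNC had opposite directions. FHL1 was higher in extravasated D17 and lower in extravasated HMPOS cells, and FLNC was lower in D17 and higher in HMPOS. The same direction was thus seen for 3 of 5 members, against 535 of all 614 symbols listed in both tables, which is 87.1%. Whether a ratio differed between the lines was not tested, since no library values were used here. The tables were normalised separately, and on that understanding MYLK was at 0.497 FPKM in parental D17 and 27.9 FPKM in parental HMPOS cells, the widest contrast of level between the lines among these 5.

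**Figure D3:**
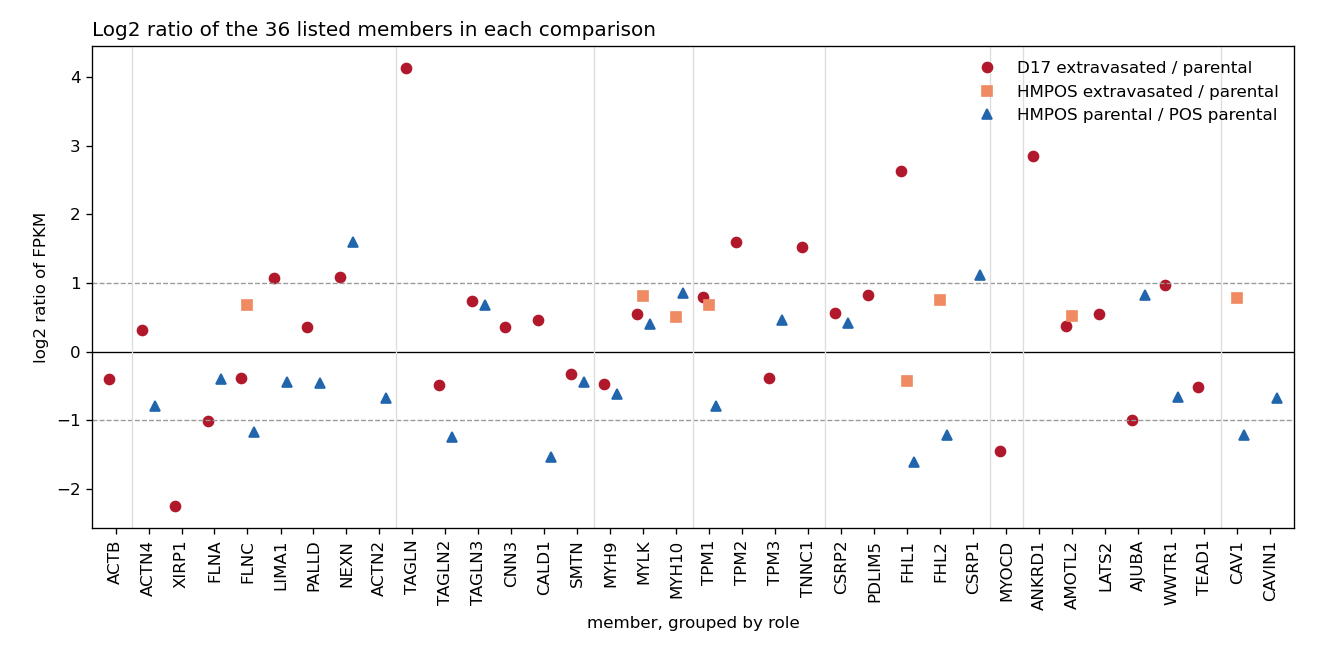
Log2 ratio of FPKM for each of the 36 listed members, in the order of their roles, for the D17 (circles), HMPOS (squares) and HMPOS against POS (triangles) comparisons, with a fold of 2 as dashed lines. The D17 values reach from -2.25 to 4.13, the HMPOS values lie between -0.44 and 0.81, and a missing symbol means that the gene was not listed. The signs of ACTN4, CNN3, PALLD and AMOTL2 in D17, and of MYH10 and AMOTL2 in HMPOS, turn when centred on the table's median.

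The third comparison set the parental HMPOS sub-line against POS, the line it came from. Most listed members were lower in HMPOS, led by FHL1, CALD1 and TAGLN2. Of 24 listed members, 8 were higher and 16 lower in HMPOS, that is 33.3% higher, against 47.7% of all listed genes. At a fold above 2, 2 members were higher and 6 lower, and of all genes listed for that pair 8.49% were higher and 19.1% lower. Centring on the table's median turned this balance to 4 higher and 2 lower, since TAGLN2, CAV1, FHL2 and FLNC no longer passed the fold and MYH10 and AJUBA did. The median log2 ratio of HMPOS over POS was -0.54 for the members and -0.31 for all listed genes.

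The 6 members that were lower by more than a fold of 2 were FHL1, CALD1, TAGLN2, CAV1, FHL2 and FLNC. FHL1 was at 22.7 FPKM in HMPOS against 69.0 FPKM in POS cells, a log2 ratio of -1.60. CALD1 was at 64.8 and 188.1 FPKM, a log2 ratio of -1.54. TAGLN2 was at 340.7 and 805.2 FPKM, a log2 ratio of -1.24 at a level above 98.8% of the listed genes. CAV1 was at 10.5 and 24.3 FPKM, FHL2 at 26.2 and 60.5 FPKM, and FLNC at 10.1 and 22.6 FPKM, with log2 ratios of -1.21, -1.21 and -1.17. The members past a fold of 2 had a median of 42.4 FPKM in the higher group, against 9.75 FPKM for all genes past that fold. Members within the fold had a median of 56.0 FPKM, against 25.0 FPKM for all genes within it. The higher level was thus not particular to the members past the fold.

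The 2 members that were higher in HMPOS by more than a fold of 2 were expressed at a few FPKM or less. NEXN was at 3.92 FPKM in HMPOS against 1.30 FPKM in POS cells, a log2 ratio of 1.60, and CSRP1, a LIM protein of smooth muscle, at 1.02 and 0.470 FPKM, a log2 ratio of 1.12 that fell within a fold of 2 with 0.1 FPKM added to both groups.

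Paralogs had opposite directions in some families and the same in others. Among tropomyosins, TPM1 was at 360.4 FPKM in HMPOS against 624.6 FPKM in POS cells and TPM3 at 89.5 and 65.4 FPKM, so the ratio of TPM1 to TPM3 was 4.03 in HMPOS and 9.55 in POS. Among myosin heavy chains, MYH9 was at 35.4 and 54.2 FPKM and MYH10 at 21.4 and 11.8 FPKM, so the ratio of MYH9 to MYH10 was 1.66 in HMPOS and 4.59 in POS. Both filamins were lower in HMPOS, FLNA at 131.3 against 172.9 FPKM and FLNC by more, and the ratio of FLNA to FLNC was 13.1 in HMPOS and 7.65 in POS. TAGLN3 was at 4.83 and 3.01 FPKM, on the opposite side from TAGLN2. FHL1 and FHL2 were both lower in HMPOS, and CSRP1 and CSRP2 both higher.

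Of the actin crosslinkers, 6 of the 7 listed were lower in HMPOS than in POS, against 52.3% of all listed genes. ACTN4 was at 136.9 and 237.2 FPKM and ACTN2, the muscle alpha-actinin, at 1.85 and 2.97 FPKM. LIMA1 was at 47.0 and 63.8 FPKM and PALLD at 85.4 and 117.7 FPKM. CAVIN1, the cavin that is needed for caveolae to form, was lower with CAV1, at 56.9 and 91.1 FPKM. The locus given for CAVIN1, on chromosome 9 from 20407525 to 20529021, is the same as that given for NAGLU, so the values of these 2 genes may share reads. Of the YAP pathway, WWTR1 was at 9.73 FPKM in HMPOS against 15.4 FPKM in POS cells, and AJUBA at 57.7 and 32.5 FPKM. SMTN and CSRP2 were within a fold of 1.5, with log2 ratios of -0.45 and 0.41.

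The extravasated HMPOS table and the HMPOS against POS table share parental HMPOS, so a low or high parental value enters both and the 2 sets of ratios are not independent. The values of the 3 groups for the 7 members in both tables are therefore set side by side without a comparison of the ratios. CAV1 was at 18.0 FPKM in extravasated HMPOS, 10.5 FPKM in parental HMPOS and 24.3 FPKM in POS cells. FHL2 was at 44.1, 26.2 and 60.5 FPKM, FLNC at 16.1, 10.1 and 22.6 FPKM, and TPM1 at 576.7, 360.7 and 624.6 FPKM in the same order. For each of these 4 genes parental HMPOS was lowest and POS highest. MYH10 was at 30.4, 21.4 and 11.8 FPKM and MYLK at 48.8, 27.9 and 21.0 FPKM, so POS was lowest for both myosin genes. FHL1 was at 16.8, 22.8 and 69.0 FPKM and was lowest in extravasated HMPOS.

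**Figure D4:**
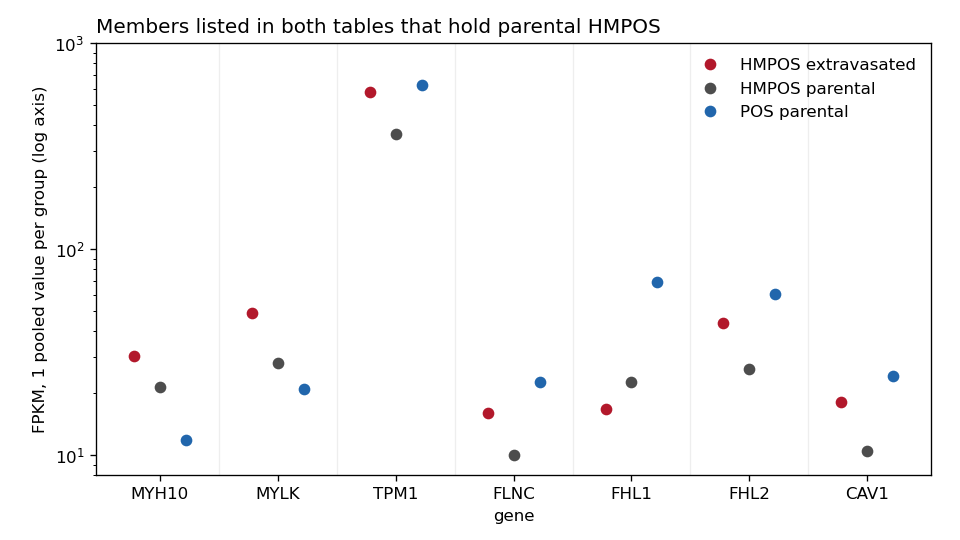
FPKM on a log axis of the 7 members listed in both tables that hold parental HMPOS, with extravasated HMPOS in red, parental HMPOS in grey and POS in blue, 1 value per group and no error. Parental HMPOS is lowest of the 3 for CAV1, FHL2, FLNC and TPM1, POS is lowest for MYH10 and MYLK, and extravasated HMPOS is lowest for FHL1. The sign of extravasated over parental MYH10 turns when centred on the table's median.

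A further 94 genes of the same pathways, outside the members, were read from the same tables. For D17, 39 were listed, 27 on the higher side and 12 on the lower, beside the 54.2% and 45.8% of the whole table. Past a fold of 2, 8 were higher and 1 lower, beside 18.3% and 8.50% of the whole table, so 8 of 39 is not far from the background. Of 22 further contractile and sarcomeric genes, 8 were listed, all higher, and 7 passed a fold of 2, against 18.3% of all listed genes. The most abundant was PDLIM1, a LIM protein that binds alpha-actinin, at 209.1 FPKM in extravasated against 64.1 FPKM in parental cells, and the others past that fold were at most 4.20 FPKM in extravasated cells. Of 16 focal adhesion genes, 8 were listed and 7 were higher, against the same 54.2%, among them FBLIM1 (migfilin) at 1.40 and 0.264 FPKM and ZYX (zyxin) at 15.8 and 9.12 FPKM. Of 26 further Hippo and YAP genes, 12 were listed, 6 higher and 6 lower, and none passed a fold of 2. The matricellular YAP targets CYR61 and CTGF were at 324.1 against 207.1 FPKM and at 7.99 against 4.19 FPKM, while the Hippo kinase STK4 was at 16.7 against 25.6 FPKM. DIAPH3, a formin, was at 9.63 and 21.1 FPKM.

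In extravasated HMPOS cells 12 of the 94 genes were listed, 7 higher and 5 lower, against 67.0% higher among all listed genes. FBLIM1 was at 1.14 FPKM in extravasated against 0.489 FPKM in parental cells and PDLIM1 at 52.2 and 28.5 FPKM, on the same side as in D17. SORBS2, an adaptor of stress fibres and discs, was at 1.51 and 4.13 FPKM, on the opposite side from D17, where it was at 38.5 and 22.3 FPKM. DIAPH3 was at 37.3 and 56.3 FPKM, lower as in D17.

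Between HMPOS and POS 45 of the 94 genes were listed, 13 higher and 32 lower in HMPOS, with 3 and 12 past a fold of 2 against the background of 8.49% and 19.1%. Of the 22 contractile and sarcomeric genes, 11 were listed, 4 higher and 7 lower in HMPOS. Of these, 1 was higher and 6 lower past a fold of 2, against the same 8.49% and 19.1%. Of 26 Hippo and YAP genes, 18 were listed and 13 were lower in HMPOS, against 52.3% of all listed genes at any fold. CTGF was at 0.329 FPKM in HMPOS against 1.86 FPKM in POS cells, NT5E, a surface enzyme that makes adenosine, at 16.3 and 37.9 FPKM, and F3 (tissue factor) at 27.2 and 66.5 FPKM. The Hippo kinases STK3 and STK4 and their partner SAV1 were among the 5 that were higher, with log2 ratios of 0.48, 0.41 and 0.48. NF2, WWC1 and MOB1A, also of the Hippo pathway, were among the 13 that were lower, with log2 ratios of -0.71, -0.64 and -0.35. The Hippo genes thus went both ways. The MRTF gene MKL1 was at 5.81 FPKM in HMPOS against 8.11 FPKM in POS cells, and was not listed in the other tables. Of 16 focal adhesion genes, 7 were listed and 6 of these were lower in HMPOS, against the same 52.3%, ZYX at 8.22 against 12.5 FPKM and PXN (paxillin) at 9.74 against 14.5 FPKM.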

How the data were processed

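Polyadenylated RNA of canine osteosarcoma cells was sequenced in 15 libraries, 3 for each of 5 groups. Per the labels, the authors used Trimmomatic 0.38, TopHat2, Cufflinks and Cuffdiff with CanFam3.1, and the columns are those of Cuffdiff, whereas the article's methods name STAR, voom and limma. The deposited FPKM values are 1 per group and table and pool the libraries of that group, so depth is unknown and no SD, interval, floor or test was possible. All rows of the 3 tables are marked significant by the authors. The authors' own columns of log2 fold change, test statistic, p-value and q-value were not used. Columns with values of single samples numbered 0.

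Columns were mapped to groups by the names in the tables, of which meta was read as extravasated and norm as parental. Log2 ratios of FPKM were computed without a pseudocount as extravasated over parental cells, or HMPOS over POS. Members past a fold of 2 were counted in each direction beside all listed genes. Genes with a 0 in 1 group (39 rows, 0 of them members) counted as past the fold and stayed out of medians. Every member past a fold of 2, listed for both lines or named as a regulator, and XIRP1, was given with values, other members by value or by name. The members and lists were chosen with earlier results of these data known. Alternatives were other fold thresholds, a minimum of 1 FPKM, pseudocounts of 1 and 0.1 FPKM, centring on the median and comma-joined names. The counting was tested on simulated data. No promoter or protein sequences were used here, and the results for 2 items are not reported here. Python 3.11.15, numpy 2.4.6, pandas 2.3.3 and matplotlib 3.10.9 were used.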

Additional observations from a re-analysis of the deposited data

Results flagged for a closer look

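FHL1 and FLNC had opposite directions in the extravasated cells of D17 and HMPOS. The log2 ratio of FHL1 was 2.63 in D17 and -0.44 in HMPOS, and that of FLNC was -0.38 in D17 and 0.68 in HMPOS. The difference between the lines was not tested, since each ratio rests on 1 value per group.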

How the results depend on the processing

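At a fold above 1.5, the higher members numbered 11 in D17 and 5 in extravasated HMPOS, and in HMPOS against POS there were 5 higher and 12 lower. At any fold there were 19 higher and 11 lower in D17, 7 and 1 in HMPOS, and 8 and 16 in HMPOS against POS. A pseudocount of 1 FPKM left 4 higher and 1 lower in D17 and 1 higher in HMPOS against POS, where a pseudocount of 0.1 FPKM also left 1. Centring on the table's median gave 1 lower in HMPOS, and 4 higher and 2 lower in HMPOS against POS. The other alternatives left each count within 1.5 times.

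The median log2 ratio of the members was 0.36 in D17 with a minimum of 1 FPKM, 0.36 with a pseudocount of 1 FPKM and 0.029 after centring. In HMPOS it was 0.65 and 0.67 with pseudocounts of 1 and 0.1 FPKM and 0.092 after centring, and in HMPOS against POS it was -0.47 with a pseudocount of 1 FPKM and -0.23 after centring. Centring turned ACTN4 (-0.066), CNN3 (-0.024), AMOTL2 (-0.020) and PALLD (-0.027) in D17, and MYH10 (-0.081) and AMOTL2 (-0.063) in HMPOS. Of members listed for both lines, 1 was higher in both and 0 had opposite directions at a fold above 1.5 in both, and 1 was lower in both after centring. The listed genes passed the authors' test and their log2 ratios are at least 0.28 in size in D17, so centring on them does not set genes without a difference to 0.

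Although replicate numbers exist for the libraries, no paired analysis was possible because the deposited values are pooled by group. Fits that leave out a library could not be run for the same reason. Genes near 1 FPKM are the most limited by the unknown depth.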
